A study of Ovis aries with 6 samples.

Results

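Genes of the Z-disc and of its response to stretch were followed in sheep muscle, namely XIRP1, XIRP2, CSRP3, ANKRD1, ANKRD2, LMCD1, MYOZ1, MYOZ2, MYOZ3 and ACTN2. They were chosen by gene name, 10 of the 23144 genes with counts, and all 10 were among the 12506 genes that passed the filter on low counts. The Z-disc is the plate at each end of the sarcomere in which the thin filaments of neighbouring sarcomeres are cross-linked by alpha-actinin. Many further proteins bind there, and several of them, among them muscle LIM protein (CSRP3) and the muscle ankyrin repeat proteins (ANKRD1 and ANKRD2), are also found in the nucleus and are known to rise when muscle is stretched, loaded or injured. The Z-disc is also where the calcineurin-binding calsarcins (MYOZ1, MYOZ2 and MYOZ3) are held, and their forms differ between fast-twitch and slow-twitch fibres.

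The samples were longissimus dorsi muscle, a long back muscle, of 1-year-old females, 3 of the breed Qianhua Mutton Merino (QHMM) and 3 of the breed Small Tail Han (STH), kept in the same environment with free access to feed and water. The methods also give a fast before slaughter, after which live weight was measured. QHMM is a meat and wool breed derived from South African Mutton Merino rams and Northeast Fine-wool ewes, and STH is a local breed. No treatment and no introduced allele is given for any animal, each library came from 1 animal, and breed is the only factor of the design, so that anything else that differed between the 2 sets of animals cannot be told apart from breed. Messenger RNA was sequenced on an Ion Proton instrument and fold changes are given as STH vs. QHMM.

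Library totals on genes lay between 10982191 and 14334544 counts. Values below are counts scaled to a common library size with the TMM factors of edgeR ("normalized counts"), and levels of different genes are compared as RPKM, which divides by gene length. The first principal component (44.1% of the variance) separated the breeds, and the second (19.1%) set QHMM replicate 2 and STH replicate 3 apart from the other 4 libraries. Markers of skeletal muscle summed to 137364 to 155761 RPKM in QHMM and 109603 to 165843 in STH, with TNNT3 (fast troponin T) listed at 0 in all 6 libraries, and 0 of 10 tested were called (2 at an unadjusted p under 0.05, with MYOG, the myogenin gene, at a log2 fold change of -1.76). Cardiac markers summed to at most 5.92 RPKM (1 tested, TNNI3, with an FDR above the threshold), and NPPA, NPPB and NKX2-5 had 0 counts in every library.

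A gene was called when its FDR over the 12506 genes was below 0.05 and its change exceeded 1.5-fold (edgeR, quasi-likelihood test). By this rule 432 genes were called, 3.45% of those tested, with 203 (1.62%) up-regulated and 229 (1.83%) down-regulated in STH. Of the 10 Z-disc and stretch-response genes 1 was called, XIRP1, which was up-regulated in STH. In edgeR 6 of the 10 had an unadjusted p under 0.05, as had 2395 of all genes tested. The breeds did not overlap for 4 of the 10 (XIRP1, CSRP3, MYOZ3 and ACTN2), against 24.7% of all genes tested. Of the 10 estimates 8 were higher and 2 lower in STH, with a median log2 fold change of 0.71 beside 0.02 over all genes tested. With 10 genes, 1 call is a share of 10%, which rests on a single gene.

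Together the 10 genes took 0.841%, 0.794% and 0.963% of all counts in the QHMM animals, by replicate number, and 1.76%, 1.36% and 1.64% in the STH animals. The 95% Wilson intervals of these shares reached at most 0.00712 percentage points to either side and cover counting error alone. ACTN2, MYOZ1 and XIRP1 supplied most of those counts, and every STH library lay above every QHMM library. In muscle homogenate, fewer cells of a type and less RNA per cell cannot be told apart.

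**Figure D1:**
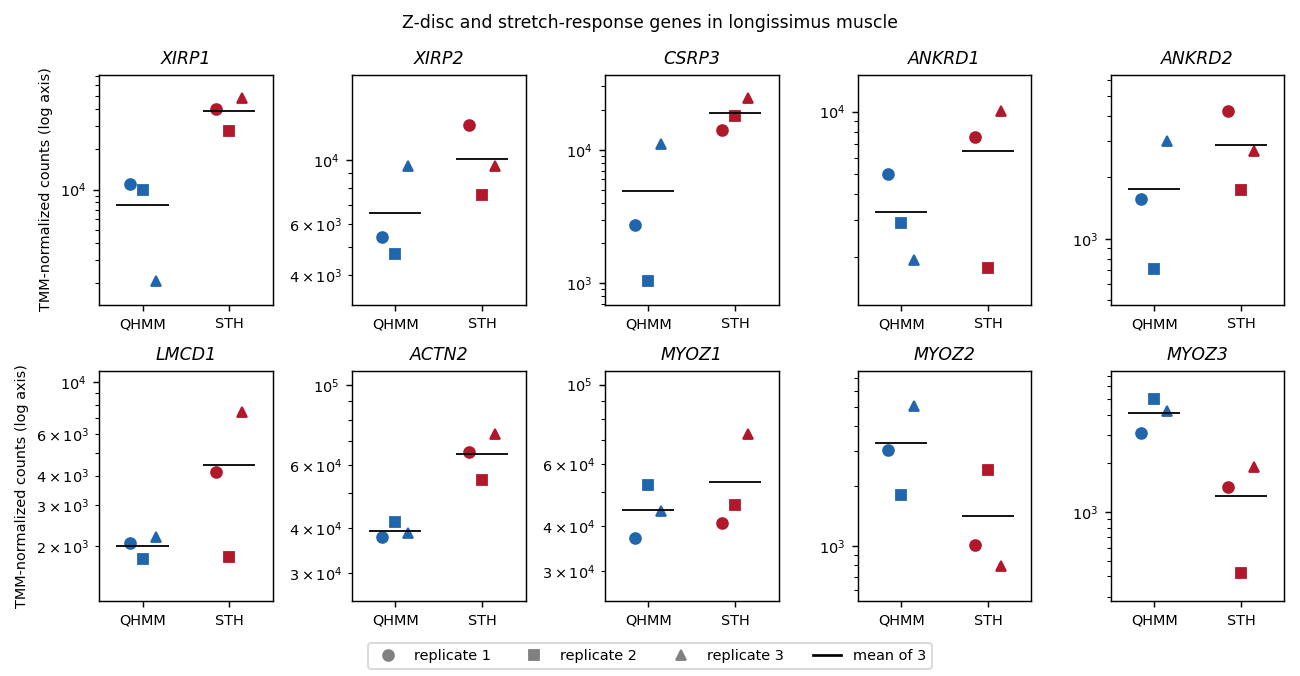
Normalized counts (log axis) of the 10 Z-disc and stretch-response genes in each of 3 QHMM and 3 STH libraries, with 1 point per animal and a bar at the breed mean. XIRP1, CSRP3 and ACTN2 lie higher in all STH libraries and MYOZ3 lies lower in all of them, while the breeds overlap for the other 6 genes.

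XIRP1 and XIRP2 encode the Xin actin-binding repeat proteins, which bind actin filaments at sites where fibres are joined or damaged. Of the pair, XIRP1 was the gene that was called. In QHMM animals 1, 2 and 3 it had 10954, 9923 and 2076 normalized counts, and in STH animals 39718, 27122 and 48127. Every STH animal stood above every QHMM animal, and QHMM replicate 3 stood far below the other QHMM animals. The breed means were 7651 ± 4856 (SD, n = 3) and 38322 ± 10572 (SD, n = 3), a 5.01-fold difference, or 2.32 on the log2 scale (SE 0.53, FDR 0.0416). The call was kept without QHMM replicate 3 (log2 fold change 1.88, FDR 0.0405). It was lost when any of the other 5 libraries was left out, with FDRs of 0.0764 without QHMM replicate 1, 0.0857 without QHMM replicate 2, 0.0544 without STH replicate 1, 0.0593 without STH replicate 2 and 0.0771 without STH replicate 3. Among the 200 genes with the most counts, XIRP1 had the 4th highest log2 fold change.

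XIRP2 gave 5435, 4734 and 9559 normalized counts in the QHMM animals and 13216, 7593 and 9577.5 in the STH animals. QHMM replicate 3 was the highest of its breed here, above STH replicate 2, so that the breeds overlapped. The log2 fold change was 0.62 (SE 0.33, FDR 0.331). XIRP1 supplied 80.5%, 81.1% and 30.8% of the summed RPKM of the pair in QHMM and 86.0%, 88.0% and 91.1% in STH. The shares did not overlap, but the gap of 24.2 percentage points fell to 7.58 without QHMM replicate 3, in which XIRP1 was low and XIRP2 high. The exact permutation p of 0.1 (two-sided, n = 3 a breed) is the smallest that this design can give, and this holds for each exact test below.

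CSRP3 encodes muscle LIM protein, a Z-disc protein known as part of the stretch-sensing machinery. Its QHMM animals spread more widely than those of any other of the 10 genes, with 2724, 1038 and 10983 normalized counts and a 10.6-fold range. The STH animals had 14092, 18005 and 24502. All 3 lay above QHMM replicate 3, the highest of its breed. The means were 4915 ± 5322 and 18866 ± 5258 (SD, n = 3 each), and the log2 fold change of 1.94 (SE 0.67) did not pass the threshold (FDR 0.144). It lay between 1.46 (without QHMM replicate 2, FDR 0.227) and 3.33 (without QHMM replicate 3, FDR 0.0198) when 1 library was left out, and the second of these was the only such fit of 6 to call it. Of the 11 alternatives 2 called it, the replicate block (2.53, FDR 0.0303) and no filter on low counts (FDR 0.0410), with FDRs of up to 0.387 in the others. The 11 include a fit without QHMM replicate 2 and STH replicate 3, chosen after seeing the data, which gave the 0.387.

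The ankyrin repeat genes are a family of stretch-responsive proteins that bind titin in the I-band. ANKRD1 (CARP) had 4995, 2909 and 1935 normalized counts in QHMM and 7530.1, 1768 and 10053 in STH. STH replicate 2 was the lowest of the 6 animals while the other STH animals were the highest, and the log2 fold change was 0.98 (SE 0.54, FDR 0.358). ANKRD2 (Arpp), a form known from slow muscle, gave 1559, 714 and 2992 normalized counts in QHMM and 4242, 1725 and 2681 in STH. These values overlapped as well (log2 fold change 0.72, SE 0.47, FDR 0.449). ANKRD1 made up 63.2% ± 23.0 of the summed RPKM of ANKRD1 and ANKRD2 in QHMM and 62.3% ± 14.6 in STH (SD, n = 3). That difference of -0.991 percentage points was far within the spread between animals (exact p = 0.9).

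LMCD1 (dyxin) is a LIM and cysteine-rich domain protein known as a co-factor that represses GATA6 and as a regulator of calcineurin signalling in muscle. Its QHMM animals lay close together at 2067, 1761 and 2185 normalized counts, and its STH animals lay apart at 4137, 1809 and 7412.5. STH replicate 2 fell among the QHMM animals. The log2 fold change was 1.15 (SE 0.41, FDR 0.161). It ranged from 0.57 without STH replicate 3 (FDR 0.390) to 1.51 without STH replicate 2 (FDR 0.0429), and of the 11 alternatives DESeq2 called it (FDRs of 0.0410 to 0.610).

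ACTN2 encodes alpha-actinin-2, which cross-links the thin filaments of every fibre type, and ACTN3 its relative of fast fibres. ACTN2 had 37691, 41611 and 38797 normalized counts in QHMM and 65199, 54309 and 72831 in STH. The breeds did not overlap, and the QHMM animals differed little among themselves. The means were 39366 ± 2021 and 64113 ± 9309 (SD, n = 3 each), and edgeR put the log2 fold change at 0.70 (SE 0.25, FDR 0.156). It was called under 3 of the 11 alternatives, DESeq2 and limma-trend with either pseudocount (FDRs of 0.0418 to 0.0456, and up to 0.883 in the others), and in 0 of the 6 fits that left out a library (FDRs of 0.207 to 0.354).

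ACTN3 moved the other way in its values, with 77207, 97315 and 67671 normalized counts in QHMM and 22323, 36364 and 60502 in STH (log2 fold change -1.02, SE 0.36, FDR 0.155). The breeds did not overlap for ACTN3 either. ACTN2 supplied 23.3%, 21.0% and 26.3% of the summed RPKM of the pair in QHMM and 64.5%, 48.1% and 42.8% in STH. The share was 28.3 percentage points higher in STH (51.8% ± 11.3 against 23.5% ± 2.64, SD, n = 3, exact p = 0.1), and it lay between 21.9 and 32.8 points higher whichever library was left out.

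**Figure D2:**
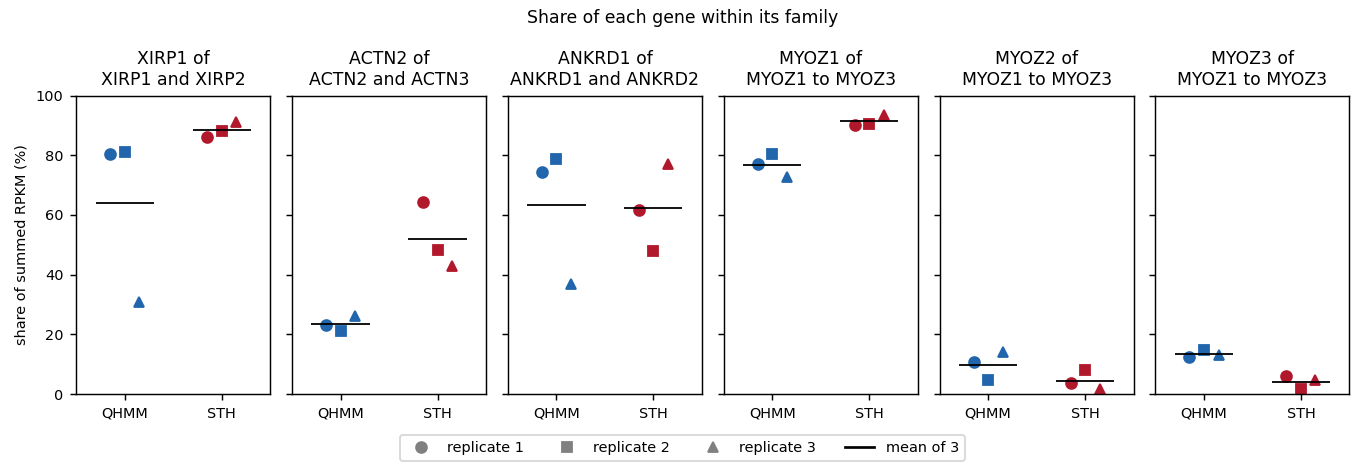
Share of summed RPKM (percent) taken by 1 gene of each family of the Z-disc in the 3 QHMM and 3 STH libraries, with 1 point per animal and a bar at the breed mean. The shares of ACTN2 and of MYOZ1 are higher in every STH library and the share of MYOZ3 is lower, while the ANKRD1 shares of the breeds lie across each other.

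The calsarcins bind calcineurin, the calcium-dependent phosphatase of fibre-type signalling, and tether it to alpha-actinin. MYOZ1 (calsarcin-2), the form of fast fibres, was by far the most abundant of the 3, with 37074, 52205 and 44282 normalized counts in QHMM and 40921, 45822 and 72865 in STH. The high value of STH replicate 3 set the sign of its small log2 fold change (0.26, SE 0.30, FDR 0.689), which was -0.035 without that animal. This depended on the scaling. In RPKM, which does not use the TMM factors, MYOZ1 was at 1787, 2120 and 2173 in QHMM. Every STH animal lay above these, at 2334, 2409 and 2962, and limma-trend on log2(RPKM + 1) gave 0.34 (FDR 0.377). MYOZ2 (calsarcin-1), the form of slow fibres and heart, gave 3034, 1812 and 5051 normalized counts in QHMM and 1011, 2418 and 793 in STH. STH replicate 2 lay above QHMM replicate 2, so that the breeds overlapped, and the log2 fold change was -1.23 (SE 0.46, FDR 0.173), or -1.89 to -0.78 when 1 library was left out.

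MYOZ3 (calsarcin-3), a further form known from fast fibres, had 3073, 4989 and 4200.4 normalized counts in QHMM and 1422, 422 and 1905 in STH. All STH animals were lower than all QHMM animals, and STH replicate 2 was far lower than the rest. The means were 4088 ± 963 and 1250 ± 756 (SD, n = 3 each), the log2 fold change was -1.71 (SE 0.45), and the FDR of 0.0683 in edgeR missed the threshold. It was called under 2 of the 11 alternatives, DESeq2 (FDR 0.000883) and no filter on low counts (FDR 0.0119), with FDRs of up to 0.215 in the others, and in 0 of the 6 fits that left out a library (FDRs of 0.0503 to 0.179).

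Within the summed RPKM of the 3 calsarcin genes, MYOZ1 supplied 77.1%, 80.5% and 72.7% in QHMM and 90.2%, 90.3% and 93.6% in STH. The share of MYOZ3 was 12.3%, 14.8% and 13.2% in QHMM and 6.01%, 1.60% and 4.69% in STH. Neither share overlapped between the breeds (differences of 14.6 and -9.31 percentage points, exact p = 0.1 each). MYOZ2 supplied 9.80% ± 4.71 in QHMM and 4.52% ± 3.23 in STH (SD, n = 3), which overlapped (exact p = 0.2).

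**Figure D3:**
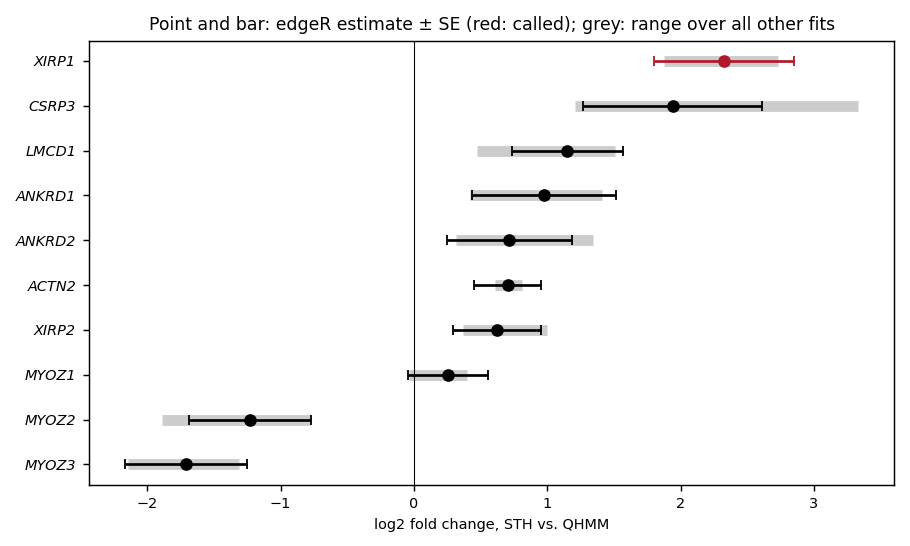
Log2 fold change of STH vs. QHMM from the edgeR fit for each of the 10 genes, with bars of 1 SE and, in grey, the range over the alternative fits and those that left out a library. XIRP1, at 2.32 and in red, is the gene called, and MYOZ2 and MYOZ3 are the 2 estimates below 0.

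Per length, the order of the 10 genes was led by MYOZ1 in both breeds, at 2027 ± 209 RPKM in QHMM and 2568 ± 343 in STH (SD, n = 3). In QHMM it was followed by ACTN2 (618 ± 36.9), CSRP3 (393 ± 438), MYOZ3 (356 ± 62.3), MYOZ2 (263 ± 148), ANKRD1 (141 ± 72.8), XIRP1 (106 ± 67.7), LMCD1 (89.8 ± 18.2), ANKRD2 (86.2 ± 61.2) and XIRP2 (46.4 ± 21.7). Of the 9 pairs of neighbours in that order 8 overlapped, all but MYOZ1 and ACTN2, so most of the QHMM order lies within the spread between animals. In STH the order was MYOZ1, CSRP3 (1515 ± 165), ACTN2 (1088 ± 161), XIRP1 (581 ± 131), ANKRD1 (288 ± 175), LMCD1 (204 ± 102), ANKRD2 (152 ± 85.0), MYOZ2 (122 ± 83.0), MYOZ3 (116 ± 63.3) and XIRP2 (77.5 ± 31.3). Here 5 of the 9 neighbouring pairs overlapped, and the 4 most abundant genes were each separate from the next. XIRP2, which has the longest gene model of the 10, stood last in both breeds.

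The animals did not rank alike across the 10 genes. Among QHMM animals, replicate 3 was the highest for 5 genes (XIRP2, CSRP3, ANKRD2, LMCD1 and MYOZ2), and replicate 2 was the lowest for the same 5. For XIRP1 and ANKRD1 replicate 3 was instead the lowest of the QHMM animals and replicate 1 the highest. Among STH animals, replicate 3 was the highest for 7 genes and replicate 2 the lowest for 7, with MYOZ2 in the reverse order (highest in replicate 2 and lowest in replicate 3). STH replicate 3 and QHMM replicate 2 are the libraries apart on the second principal component. Without those 2 libraries the XIRP1 log2 fold change was 2.36 with an FDR of 0.191, and 0 of the 10 genes were called in edgeR, with 11 genes called in all.

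For the 3 genes with the widest spread, the tested genes with the nearest profiles over the 6 libraries were sought, by the root mean square difference of centred log2(normalized counts + 1). Nearest to XIRP1 were CDKN1A (0.437), which encodes the cell-cycle inhibitor p21, SIK1 (0.444), a salt-inducible kinase, and FOSL1 (0.452), a member of the AP-1 family. CDKN1A had 163, 126 and 48.1 normalized counts in QHMM and 365, 539.9 and 734 in STH, and was called (log2 fold change 2.28, SE 0.41, FDR 0.0193), but not without QHMM replicate 2 (FDR 0.0558). SIK1 (FDR 0.139) and FOSL1 (FDR 0.0779) were not called, and all 3 had their lowest value in QHMM replicate 3, like XIRP1. The nearest to XIRP1 among the 10 genes was ANKRD1 (1.18), which came 477th among all genes.

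Nearest to CSRP3 were ZNF546 (0.305), with at most 18.1 normalized counts in any library, CDCA7 (0.483), a target of MYC, and FMO2 (0.532), a flavin monooxygenase. None of these 3 was called in edgeR (log2 fold changes of 1.68, 2.08 and 2.36 with FDRs of 0.276, 0.0784 and 0.0643), and without QHMM replicate 3 CDCA7 (FDR 0.00838) and FMO2 (FDR 0.0272) were. The closest of the 10 to CSRP3 was ANKRD2 (1.08), while CSRP3 and XIRP1 lay 1.74 apart, and QHMM replicate 3 was low for XIRP1 and high for CSRP3. Nearest to MYOZ3 were KCNS3 (0.133), a potassium channel subunit, MSS51 (0.171), a mitochondrial protein of muscle, and STBD1 (0.253), a glycogen-binding protein. MSS51 (log2 fold change -1.74, FDR 0.0385) and STBD1 (-1.99, FDR 0.0260) were called and KCNS3 (-1.72, FDR 0.0833) was not. MSS51 kept its call without STH replicate 3 (FDR 0.0317) and lost it without any of the other 5 libraries (FDRs of 0.0529 to 0.104), and STBD1 lost it without each of the 3 QHMM libraries (0.0622 to 0.0725). Likeness over 6 libraries is a description, since these profiles share their libraries and the genes were picked for it. Their shared low or high libraries and their breed differences come with that choice and are no separate support.

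**Figure D4:**
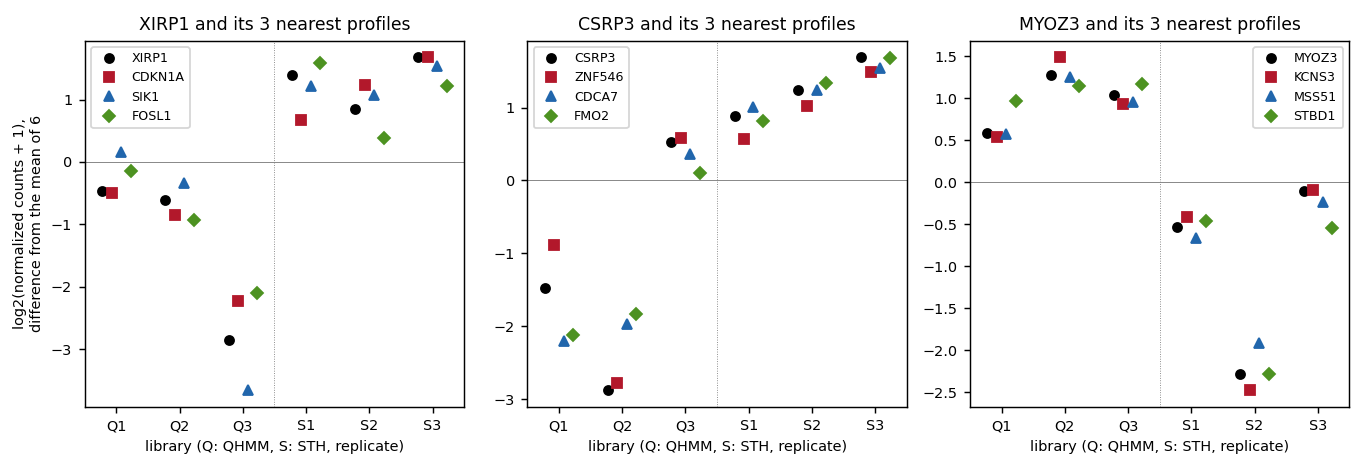
Normalized counts on a log2 scale, centred on the mean of the 6 libraries, for XIRP1, CSRP3 and MYOZ3 (black circles) and the 3 genes with the nearest profile to each (coloured symbols), by library (Q, QHMM; S, STH). The dotted line divides the breeds. QHMM replicate 3 is the lowest library for XIRP1 and the highest QHMM library for CSRP3, and STH replicate 2 is the lowest for MYOZ3.

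Of 28 other Z-disc genes, 27 were tested and 2 were called (7.41%, beside 3.45% of all genes tested), both up-regulated in STH. FLNC encodes filamin C, which links the Z-disc to the membrane and is found with XIRP1 at damaged sites. It had 66226, 67890 and 36086 normalized counts in QHMM and 177719, 106530 and 361622 in STH (log2 fold change 1.92, SE 0.45, FDR 0.0457). All STH animals were higher. PDLIM3, an alpha-actinin-associated LIM protein, had 20708, 24574 and 40393 in QHMM and 78888, 100115 and 111859 in STH (log2 fold change 1.76, SE 0.32, FDR 0.0193). The breeds did not overlap for 7 of the 27 genes, a share close to the 24.7% of all genes tested. The list was lower in STH for 19 genes and higher for 8, with a median log2 fold change of -0.10, and 6 had an unadjusted p under 0.05. Its summed RPKM was 15248 to 19856 in QHMM and 20998 to 27956 in STH, a sum weighted to the abundant genes. Mean RPKM in QHMM and STH was 1128 and 4056 for PDLIM3, 1366 and 3593 for CRYAB, 534 and 2106 for FLNC, but 2021 and 1038 for ACTN3. FLNC kept its call without STH replicate 1 or 2 and lost it in the other 4 such fits, at FDRs of 0.108, 0.0964 and 0.144 when the QHMM animals were left out by number and 0.0727 when STH replicate 3 was. PDLIM3 lost its call in the fits that left out QHMM replicate 1 (FDR 0.0839), left out QHMM replicate 2 (FDR 0.0662) and left out STH replicate 2 (FDR 0.0560).

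Of 21 genes of the stretch response and of SRF and YAP signalling, 19 were tested and 2 were called, in opposite directions. NRAP, an actin-anchoring protein of the myotendinous junction and of growing myofibrils, had 24443, 41328 and 33023 normalized counts in QHMM and 65282, 70788 and 96028 in STH (log2 fold change 1.23, SE 0.30, FDR 0.0497). ITGB1BP2 (melusin), an integrin-binding protein known to be stretch-responsive in heart, had 1111, 1269 and 1212 in QHMM and 574, 268 and 290.4 in STH (log2 fold change -1.66, SE 0.30, FDR 0.0186). The breeds did not overlap for 4 of the 19 genes, NRAP and ITGB1BP2 among them, beside 24.7% of all genes tested. The call of NRAP was lost without any of the 6 libraries (FDRs of 0.0519 to 0.176), and that of ITGB1BP2 without QHMM replicate 2 (0.0508) or QHMM replicate 3 (0.0535). The third of the muscle ankyrin repeat proteins, ANKRD23, was lower in every STH animal (log2 fold change -1.24, SE 0.45, FDR 0.163), while its relatives ANKRD1 and ANKRD2 had estimates above 0. The list was higher in STH for 6 genes and lower for 13, with a median log2 fold change of -0.21.

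Of the 8 calcineurin and calpain partners, 7 were tested, all with lower estimates in STH (median log2 fold change -0.64), and 0 were called in edgeR. Of these 7, 3 had an unadjusted p under 0.05, namely the calcineurin subunits PPP3CA (log2 fold change -0.64), PPP3CB (-0.81, SE 0.24, FDR 0.0913) and PPP3R1 (-0.81, SE 0.24, FDR 0.0929). The breeds did not overlap for these 3 of the 7, beside 24.7% of all genes tested. DESeq2 called PPP3CB (FDR 0.0268) and PPP3R1 (FDR 0.0308), and neither was called under any of the other 10 alternatives or in the 6 fits that left out a library.

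Markers of fibre type moved with the comparison and their part in it was not tested. Of the 9 slow-fibre markers tested 5 were called, beside 3.45% of all genes tested. All 5 were down-regulated in STH (OMYHCS, MYL2, TNNT1, CASQ2 and MYH7B, log2 fold changes of -1.99 to -1.31). The breeds did not overlap for 9 of the 9, beside 24.7% of all genes tested. The summed RPKM was 16491 to 23866 in QHMM and 7280 to 11239 in STH. The calls of these 5 genes were each kept in 1 or 2 of the 6 fits that left out a library. MYOZ2, the slow-fibre calsarcin, had a lower estimate as well, whereas ANKRD2 and CSRP3, both known from slow muscle, had higher ones. Of 12 fast-fibre markers, the myosin genes MYH1 and MYH2 were not among the genes with counts. TNNT3 had 0 counts and PVALB was not tested. Of the 8 tested, 0 were called in edgeR (1 at an unadjusted p under 0.05). All 8 had lower estimates in STH (median log2 fold change -0.32). Their summed RPKM was 71235 to 92699 in QHMM and 62831 to 82834 in STH. MYOZ3 and ACTN3, both known from fast fibres, had lower estimates, whereas MYOZ1, also known from fast fibres, had one above 0 (log2 fold change 0.26, FDR 0.689).

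**Figure D5:**
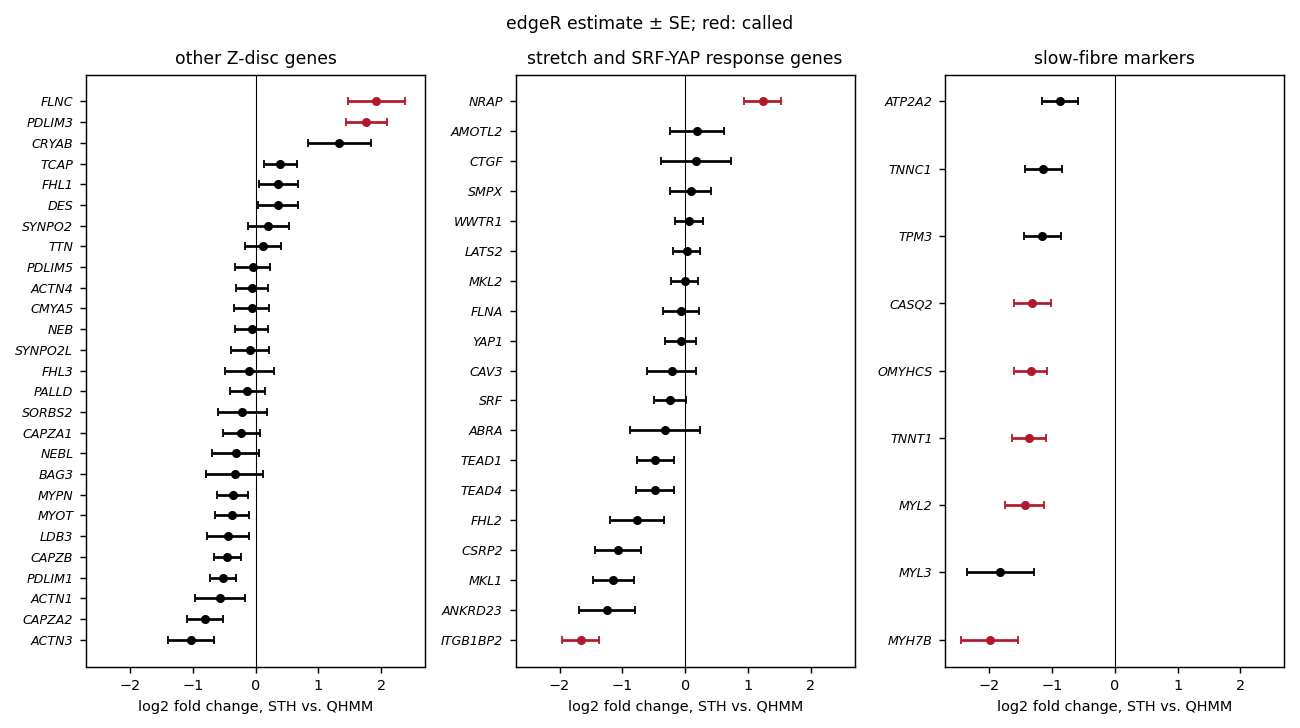
Log2 fold change of STH vs. QHMM for each tested gene of 3 lists, the other Z-disc genes, the stretch and SRF-YAP response genes and the slow-fibre markers, as edgeR estimates with bars of 1 SE (red, called). FLNC, PDLIM3 and NRAP are called above 0, ITGB1BP2 and 5 slow-fibre markers are called below it, and the 9 slow-fibre markers all lie below 0.

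Adipocyte markers were called down-regulated in STH for 4 of 6 (ADIPOQ, PLIN1, LEP and CIDEC), beside 1.83% of all genes tested. The adipocyte markers had a summed RPKM of 84.9 to 397 in QHMM and 50.2 to 160 in STH, and their part in these results was not tested. With 1 library left out, ADIPOQ was called in 6 of 6 fits and PLIN1 in 5 (not without STH replicate 2, FDR 0.0513), but LEP in 2 (without QHMM replicate 2 or STH replicate 1, with FDRs of up to 0.107 in the others) and CIDEC in 1 (without QHMM replicate 2, with FDRs of up to 0.128 in the others). Regenerating-fibre markers (4 tested) summed to 96.5 to 146 RPKM in QHMM and 61.5 to 108 in STH, smooth muscle markers (6 tested) to 110 to 302 and 170 to 308, and fibroblast markers (4 tested) to 278 to 524 and 201 to 406. Endothelial markers (3 tested) summed to 109 to 137 and 110 to 178 RPKM, and blood markers (2 tested) to 7.84 to 11.3 and 7.51 to 14.3. The haemoglobin genes HBA1, HBB and HBBA were not among the genes with counts, so the blood sum leaves haemoglobin RNA out. Also missing were KDR, TEK and CLDN5 of the endothelial markers, and COL3A1 and COL1A2 of the fibroblast markers. In edgeR 0 genes of these 5 lists were called, with 1 regenerating-fibre and 1 fibroblast gene at an unadjusted p under 0.05.

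By position in the RefSeq annotation of the sheep assembly ARS-UI_Ramb_v3.0, each calsarcin gene lies beside a gene of the synaptopodin family, some of whose proteins bind actin at the Z-disc. SYNPO2L, next to MYOZ1, had a log2 fold change of -0.08 (FDR 0.915), SYNPO2, next to MYOZ2, one of 0.21 (FDR 0.788), and SYNPO, next to MYOZ3, one of 0.37 (FDR 0.634). None of the 3 passed the test, and the signs of these small estimates depended on single libraries. On its other side MYOZ1 has USP54, a ubiquitin peptidase gene, which was called up-regulated (log2 fold change 1.03, SE 0.21, FDR 0.0300). That call was kept without STH replicate 3 (FDR 0.0356) and lost without any of the other 5 libraries (FDRs of 0.0549 to 0.114). In the same annotation CSRP3, MYOZ2 and ACTN2 are overlapped by non-coding genes, whose names are not among the genes with counts. Whether the counting used strand is not given.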

How the data were processed

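Members and gene lists were chosen with earlier results of these data known. Reads were filtered and mapped to the sheep genome (Oar 3.1), unique mapped reads were kept, and the authors deposited raw counts per gene, beside RPKM. The aligner, counting program, strand setting and annotation release are not given in the sources used here, so reads shared by related or overlapping genes could not be traced. The deposited RPKM equal the counts divided by gene length and library total, without an upper-quartile correction (implied lengths of 23119 genes agree to 5.73e-06 between libraries).

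Counts were tested in R 4.3.3 with edgeR 4.0.16 (TMM, filterByExpr, glmQLFit and glmQLFTest, breed only) and Benjamini-Hochberg adjustment over 12506 genes, because EBSeq, which the methods name, was not used here. The SE is the size of the log2 fold change divided by the root of F. Exact permutation tests compared shares. P-values set the difference between the breeds against the variation between animals. With 10982191 to 14334544 counts per library, counting error is small for these genes.

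Alternatives were DESeq2 1.42.0, upper-quartile normalization, no filter, at least 10 counts in every library, a replicate block, TREAT, leaving out the 20 most abundant genes, limma-trend (limma 3.58.1) on RPKM with a pseudocount of 1 or 0.1 (RPKM of 1 or more in 3 libraries, or unfiltered), and leaving out each library. The tests were run on simulated counts first. Named were the 10 genes, called genes of each list (or the 2 largest changes where none was called, not all of which are printed), ACTN3, and the 3 nearest profiles. The other genes, and the genomic neighbours, which were taken by position, were chosen after values were seen. Figures were drawn with Python 3.11.15 and matplotlib 3.10.9.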

Additional observations from a re-analysis of the deposited data

How the results depend on the processing

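Replicate numbers did not pair the animals (correlations of deviations of same-numbered animals 0.23, -0.04 and -0.13). With the replicate block, 457 genes, 2 of the 10 (XIRP1 and CSRP3, the latter with a log2 fold change of 2.53 and an FDR of 0.0303), 1 other Z-disc gene and 1 stretch-response gene were called. The number of genes called was 956 of 17668 tested in DESeq2, 806 of 17668 with no filter and 105 of 12506 with TREAT. It was 78 of 17644 with limma-trend on unfiltered RPKM. Without QHMM replicate 2 and STH replicate 3, a choice made after seeing the data, it was 11 of 12728, with 2 libraries a breed. It was 131 to 535 over the 6 fits that each left out 1 library. Limma-trend on log2(RPKM + 1) called 212 up-regulated and 134 down-regulated genes, against 203 and 229 in edgeR, and the median of all genes rose to 0.12. Of the 10 genes, 5 were called in DESeq2, 3 with no filter, 2 with either RPKM pseudocount, 0 with TREAT, 0 with unfiltered RPKM, 0 without those 2 libraries and 0 to 2 when 1 library was left out. Called among the other Z-disc genes were 4 in DESeq2, 0 with TREAT and 0 with unfiltered RPKM. Their number was 0 without the 2 libraries and 0 to 2 when 1 was left out. Without the 20 most abundant genes, which included FLNC, 24 of them were tested and 1 was called, PDLIM3 (FDR 0.0190). For the stretch-response genes these counts were 4 in DESeq2, 1 under the minimum of 10 counts, 1 when the 20 most abundant genes were left out, 1 with unfiltered RPKM, 0 with TREAT, 0 without the 2 libraries and 0 to 1. Apart from the removal of FLNC, the cause of these changes was not tested. XIRP1 lost its call with TREAT (FDR 0.106) and unfiltered RPKM (FDR 0.0928), and MYOZ2 (FDR 0.0382) and LMCD1 (FDR 0.0410) gained one in DESeq2 and under none of the other 10 alternatives. Leaving out 1 library turned the sign of the ANKRD1 share (-14.2 to 6.69 percentage points), MYOZ1 (log2 fold change -0.035 to 0.40), ACTA2 (-0.090 to 0.66) and the neighbouring genes UBTD1 (-0.091 to 0.50), SYNPO2L (-0.48 to 0.15), SYNPO2 (-0.15 to 0.48) and SYNPO (-0.14 to 0.59). Without the 2 libraries SYNPO2 was at -0.15 and SYNPO at -0.0075.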
